A study of Mus musculus with 14 samples.

Results

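Differentiating female mouse embryonic stem (ES) cells carrying the Setdb1 hairpin shSetdb1.4 were compared with cells carrying the non-silencing hairpin Nons at day 5 of differentiation, in allele-specific RNA-seq of the X chromosome. The comparison holds 4 of the 14 libraries of the series, 2 per hairpin, chosen by their labels alone and paired by replicate number. All 4 libraries come from Setdb1+/+ Xist∆A/+ 129/CAST F1 ES cells, sired by Mus musculus castaneus (CAST) males, and the labels name 1 genotype for every sample. The labels give the dams as 129/C57, while the study's text gives them as 129. The cells were moved stepwise from 2i plus LIF medium into serum medium, transduced with retrovirus carrying either hairpin and selected with puromycin. The sources used here give different days for the transduction. The study describes the replicates as 2 independent experiments of one F1 line, so the p-values below measure the spread between these experiments and not between lines.

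In female mammals one X chromosome is silenced early in development. The non-coding RNA Xist coats the chromosome it is made from, genes along that chromosome lose transcription, and repressive histone marks accumulate. Xist∆A lacks the A repeat that Xist needs for silencing, so the 129 X that carries it stays active (Xa) and the CAST X becomes the inactive X (Xi). Setdb1 is a methyltransferase of histone 3 lysine 9, best known for silencing repeats and germline genes in ES cells. The ratio of CAST to 129 reads at single nucleotide polymorphisms (SNPs) in exons, written here as the Xi/Xa ratio, falls as silencing proceeds. The study notes that some cells in such cultures had lost an X chromosome. In these bulk samples a change in the share of cells with either X cannot be told apart from a change in allele RNA per cell.

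The hairpins deliver different short guides, shown here because the comparison rests on them. Each guide is written 5′ to 3′ as DNA with its seed (bases 2 to 8) in capitals, as read from the study's oligo table.
shSetdb1.4: tTTGTCTGcaaagtcatctgtc
Nons: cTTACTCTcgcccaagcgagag
shSetdb1.6: tAGATCTTgagaactgcttttc
The first 21 bases of the shSetdb1.4 guide had their full complement in the transcripts of 1 gene of the GENCODE annotation of mm10, Setdb1, at chr3:95327805-95327825 on the minus strand. The site, acagatgactttgcagacaaa on the mRNA strand, lies in coding sequence of exon 16 of a transcript with 22 exons and is held by 4 of the 6 annotated Setdb1 transcripts. The shSetdb1.6 guide, used below only for a comparison between hairpins, matched coding exon 5, and the Nons guide matched 0 genes. The table of allele counts covers the X chromosome alone, so the level of Setdb1 itself and the depth of the knockdown were not analysed here. X-linked markers of other cell types gave little to check the label with: of 11 looked at, Plac1, Gata1 and Dcx had no SNP, and Nr0b1, Esx1 and Cited1 had between 33 and 62 reads over the 4 libraries.

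Sequencing depth was uneven within the comparison. The Nons libraries held 87088 and 32972 allele reads in replicates 1 and 2, and the shSetdb1.4 libraries held 77212 and 101511. Nons replicate 2 was the shallowest of all 14 libraries and shSetdb1.4 replicate 2 was the deepest. At SNPs with at least 10 reads the median was 28, 20, 27 and 28.5 reads in the same order, and 1607, 783, 1482 and 1612 SNPs reached that minimum. A gene's CAST share had a median 95% Wilson interval of 6.95, 11.1, 7.42 and 6.77 percentage points on either side in these libraries. Such intervals, here and below, cover counting error only. A read over several SNPs is counted at each, so they are narrower than separate reads would give.

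Across the chromosome, CAST reads made up a larger part of the allele reads with shSetdb1.4 than with Nons in both replicates. They were 42.6% and 46.1% of the allele reads in the Nons libraries, against 45.3% and 53.8% in the shSetdb1.4 libraries. The median log2 Xi/Xa ratio over SNPs, with 1 added to each allele count, was -0.47 and -0.25 in Nons and -0.27 and 0.19 in shSetdb1.4. As linear ratios these are 0.722 and 0.842 against 0.829 and 1.14. In undifferentiated cells at day 0 the median log2 ratio was -0.13 and -0.04. The median of shSetdb1.4 replicate 2 thus lay above both day 0 libraries, and the other day 5 libraries of the comparison lay below them. The reason was not tested. Each shSetdb1.4 library was above the Nons library of its own replicate, yet shSetdb1.4 replicate 1 sat just below Nons replicate 2, so the groups overlapped when the pairing was set aside. The difference was 0.20 in replicate 1 and 0.44 in replicate 2, or 1.15-fold and 1.35-fold, with a mean of 0.32 ± 0.17 (SD, n = 2). An exact permutation test within replicates, two-sided, gave p = 0.5, which is the smallest value that 2 pairs allow. Without the pairing the exact permutation test gave p = 0.667, where 0.333 is the smallest possible.

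**Figure D1:**
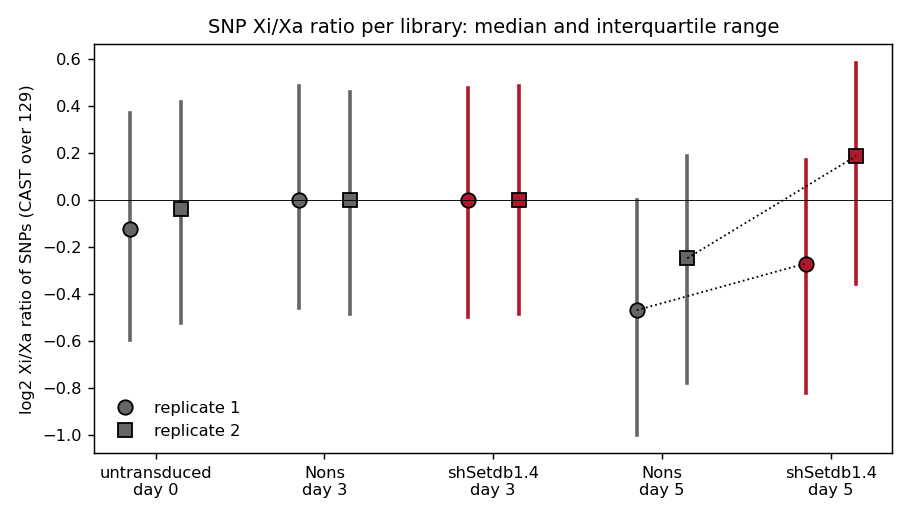
Median log2 Xi/Xa ratio over SNPs with at least 10 reads (points) and interquartile range (vertical bars) in each library, with circles for replicate 1 and squares for replicate 2. Dotted lines join the day 5 libraries of a replicate, and both rise from Nons to shSetdb1.4, by 0.20 and 0.44, while the 4 libraries of day 3 all sit at 0.

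The same pattern was seen SNP by SNP. With shSetdb1.4 the ratio was higher at 848 of 1403 SNPs (60.4%) in replicate 1 and at 574 of 781 SNPs (73.5%) in replicate 2. Of the 766 SNPs covered in all 4 libraries, 352 (46.0%) were higher in both replicates and 76 (9.92%) were lower in both. Coding SNPs were higher at 64.1% and 75.6% of positions, and SNPs in UTRs at 58.3% and 72.7%. SNPs in other exon sequence were higher at 49.1% of 57 positions and 40% of 20. SNPs of a gene share its reads, so these shares carry no test. The share of SNPs with more CAST than 129 reads was 22.7% and 32.8% in Nons, 30.6% in shSetdb1.4 replicate 1 and 56.6% in shSetdb1.4 replicate 2.

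Counts were then summed by gene over SNPs in exons of a single gene, which gave 355 genes, and the 247 genes that reached 10 reads in all 14 libraries were tested. The median gene had a CAST share of 42.1% and 45.7% in Nons and 45.1% and 53.3% in shSetdb1.4. Genes with more CAST than 129 reads numbered 43 and 72 in the Nons libraries, and 65 and 157 in the shSetdb1.4 libraries. Genes with a CAST share under 30% numbered 23 and 20 in Nons, against 17 and 6 with shSetdb1.4. shSetdb1.4 replicate 2 thus stood apart from the other 3 libraries on each of these measures, and shSetdb1.4 replicate 1 lay within the range of the Nons libraries on the first and second.

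In the fit across all genes, the Xi/Xa ratio was higher with shSetdb1.4 for 203 of 247 genes (82.2%) and lower for 44. The fitted log2 difference had a median of 0.32, quartiles of 0.11 and 0.52, and a median SE of 0.33. No gene passed an adjusted p of 0.05 in edgeR's quasi-likelihood test with the Benjamini-Hochberg adjustment (0 of 247, 0%), and the smallest adjusted p was 0.0603. At an unadjusted p under 0.05 there were 56 genes (22.7%), of which 55 were higher (22.3%) and 1 was lower (0.405%). DESeq2 on the same counts called 1 gene, Prps1. The lower gene was Mtmr1, a phosphoinositide phosphatase of the myotubularin family, singled out here after its values were seen. Its log2 difference was -1.46 in replicate 1 and 0.02 in replicate 2.

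The 2 replicates shared a direction more often than a size. In replicate 1 the ratio was higher for 175 genes and lower for 71, with a median difference of 0.21, and in replicate 2 it was higher for 195 and lower for 49, with a median of 0.40. It was higher in both replicates for 146 genes (59.1%), lower in both for 21 (8.5%) and mixed for 80. For 91 genes (36.8%) both shSetdb1.4 libraries lay above both Nons libraries, and for 10 (4.05%) both lay below. Of the 56 genes at an unadjusted p under 0.05, 54 were higher in both replicates. As a description, the gene differences of the replicates had a Pearson r of 0.191 and a Spearman rho of 0.202 over 247 genes, and r was 0.282 over the 86 genes whose reads numbered 100 or more in all 4 libraries. These are correlations across genes that share libraries and depth.

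**Figure D2:**
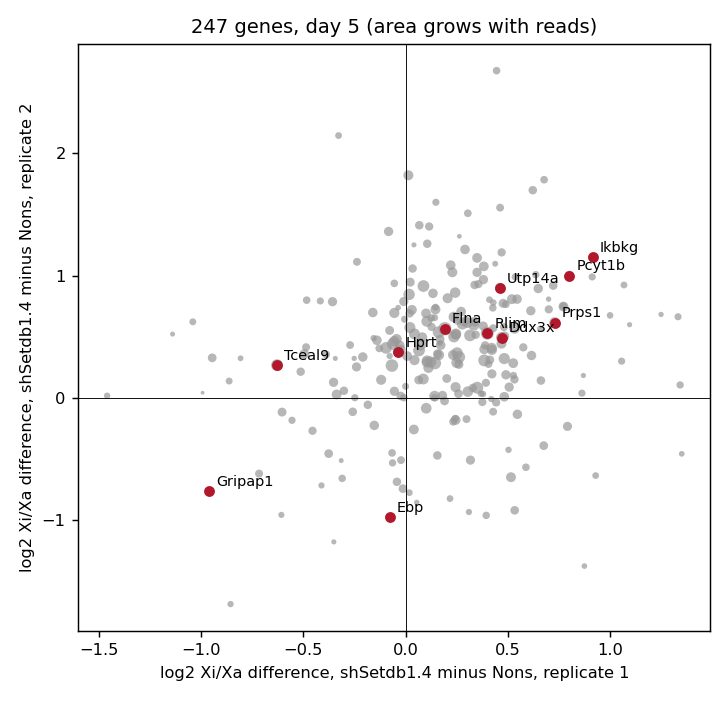
Log2 Xi/Xa difference (shSetdb1.4 minus Nons, day 5) of the 247 tested genes in replicate 1 (horizontal) and replicate 2 (vertical), 1 point per gene with an area that grows with its reads and a selection of named genes in red. The upper right corner holds 146 genes and the lower left corner 21.

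When each library's ratios were centred on its own median, which by construction brings the median near 0 and splits the genes almost evenly, 0 genes were called and 18 had an unadjusted p under 0.05. The shift rested unequally on the libraries. Without shSetdb1.4 replicate 1 the fit called 39 genes, all of them higher, with a median difference of 0.50. Without shSetdb1.4 replicate 2 it called 0, with 10 genes at an unadjusted p under 0.05 and a median of 0.15. In these fits the lone library of a group is taken to vary like those of the other groups.

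The spread of the fitted differences was smaller among genes with more reads. The genes were ranked by reads over the 4 libraries and split into 4 groups. In the group with the most reads (1215 to 14407) the fitted ratio was higher for 61 of 62, with a median of 0.35 and an SD of 0.19. In the group with the fewest reads (83 to 312) it was higher for 41 of 62, with a median of 0.24 and an SD of 0.54. The unadjusted p was under 0.05 for 23 genes of the deepest group and 9 of the shallowest.

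Prps1 and Pcyt1b had the smallest adjusted p. Prps1, a phosphoribosyl pyrophosphate synthetase at the head of nucleotide synthesis, had 240 CAST and 433 129 reads in Nons replicate 1 and 162 and 197 in Nons replicate 2. With shSetdb1.4 it had 265 and 288, then 595 and 472. Its CAST share was therefore 35.7% (95% Wilson interval 32.1 to 39.4) and 45.1% (40.1 to 50.3) in Nons, against 47.9% (43.8 to 52.1) and 55.8% (52.8 to 58.7). Both shSetdb1.4 libraries lay above both Nons libraries, the ratio was higher at all 6 of its SNPs in each replicate, and the fitted log2 difference was 0.70 (SE 0.19, adjusted p = 0.0603). DESeq2 gave it an adjusted p of 0.0154, and over its alternatives the value ran from 0.0015 to 0.496. Prps1 has a close relative on the same chromosome, Prps2, and reads shared between related copies could be misplaced.

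Pcyt1b, an enzyme of phosphatidylcholine synthesis, had 115 CAST and 209 129 reads, then 56 and 99, in the Nons libraries. It had 101 and 105, then 194 and 170, with shSetdb1.4. The CAST share was 35.5% and 36.1% in Nons and 49.0% and 53.3% with shSetdb1.4, so the groups were well apart. The fitted log2 difference was 0.90 (SE 0.26, adjusted p = 0.0625), and with a minimum of 30 reads per library 2 genes were called, Prps1 and Pcyt1b. With SNPs thinned to 1 per 100 bp the Pcyt1b difference was 0.71 (adjusted p = 0.197 in the same edgeR test).

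The sequence around the best covered SNP of 5 genes shows what these counts read. Each window of 25 bases is taken from the GENCODE transcripts of mm10, written 5′ to 3′ on the mRNA strand with the SNP base in capitals at place 13, counted from 1 at the 5′ end, and the substitution is given as reference base, place, CAST base.
Prps1: tcattgtaacaaTatcttcggtaat
Pcyt1b: aaaccaagtgctGactctccatgta
Rlim: gcaaacttggttGggaaaccctgtg
Ddx3x: ccatggcggcagTcgaggatttggt
Flna: ccccgagggctaTcgtgtcacctat
The Prps1 SNP (T13C, X:140475900, 3′ UTR, exon 7 of 7) had 51 CAST and 88 129 reads, then 46 and 47, in Nons, and 58 and 63, then 136 and 120, with shSetdb1.4. The Pcyt1b SNP (G13A, X:93749242, 3′ UTR, exon 8 of 8) had 11 and 31, then 6 and 14, in Nons, and 11 and 10, then 27 and 25, with shSetdb1.4. At the Rlim SNP (G13T, X:103957386, 3′ UTR, exon 5 of 5, minus strand) the CAST share was 33.7% and 39.8% in Nons and 45.9% and 47.8% with shSetdb1.4. At the Ddx3x SNP (T13C, X:13291286, coding, exon 16 of 17) it was 41.0% and 47.1%, then 53.1% and 54.7%. At the SNPs of Pcyt1b, Rlim and Ddx3x both shSetdb1.4 libraries lay above both Nons libraries. At the Prps1 SNP the 47.9% of shSetdb1.4 replicate 1 was below the 49.5% of Nons replicate 2. These 5 genes were picked by name and their SNPs are part of the gene counts above, so they are no separate result. How often SNPs in general separate in this way was not counted. The Flna SNP (T13C, X:74225143, coding, exon 45 of 47, minus strand) went from 49.0% to 47.9% in replicate 1 and from 50.2% to 58.6% in replicate 2.

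Among genes that reached 30 reads in all 4 libraries and had the same sign in both replicates, the 5 with the greatest positive fitted differences were Bcorl1, Ikbkg, Acot9, Gpc4 and Pcyt1b. Ikbkg encodes NEMO, the regulatory subunit of the IκB kinase complex. It had CAST shares of 41.8% and 39.1% in Nons and 57.7% and 59.4% with shSetdb1.4, a log2 difference of 1.01 (SE 0.33, adjusted p = 0.118). Bcorl1, a transcriptional corepressor, went from 25.5% and 10.5% to 35.6% and 32.6% (1.04, SE 0.44, adjusted p = 0.203), on only 4 CAST reads in Nons replicate 2. Acot9, a mitochondrial acyl-CoA thioesterase, went from 25.0% and 22.6% to 31.7% and 48.5%. Gpc4, a cell surface heparan sulphate proteoglycan, went from 41.1% and 46.9% to 52.4% and 64.3%. In each of these 5 genes, which were picked for their size, both shSetdb1.4 libraries lay above both Nons libraries, as they did for 36.8% of all genes tested.

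Of the 5 with the greatest negative differences, 0 had an unadjusted p under 0.05. Gripap1, a regulator of endosomal recycling, went from 64.9% and 62.5% in Nons to 47.7% and 48.7% with shSetdb1.4 (-0.91, SE 0.51, adjusted p = 0.276), on 32 to 76 reads a library. Ebp, a sterol isomerase of cholesterol synthesis, went from 48.8% and 57.8% to 47.4% and 40.8% (-0.52, adjusted p = 0.299). With SNPs thinned to 1 per 100 bp the differences were -0.36 for Gripap1 and -0.28 for Ebp. Wdr13, Ammecr1 and 1110012L19Rik had fitted differences between -0.41 and -0.36.

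**Figure D3:**
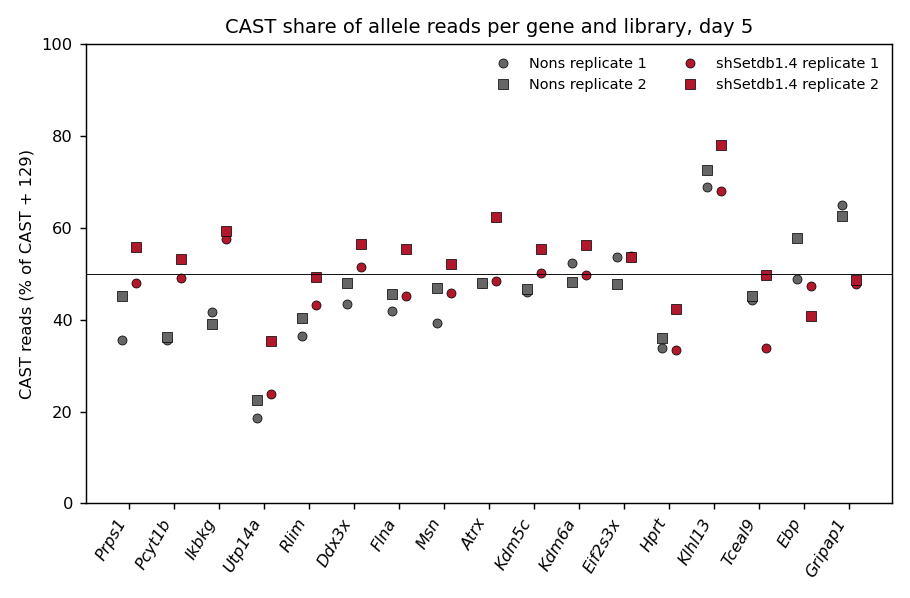
CAST share of the allele reads (percent) of 17 named genes in the 4 libraries of day 5, in grey for Nons and red for shSetdb1.4, with circles for replicate 1 and squares for replicate 2. Prps1, Pcyt1b, Ikbkg, Utp14a, Rlim, Ddx3x, Atrx and Kdm5c have both red points above both grey points, as do 36.8% of all genes tested. Gripap1 and Ebp have both below, as do 4.05% of all genes tested, and the other genes shown overlap.

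The X inactivation centre and its neighbours had 2 tested genes, both with a higher fitted ratio, beside 82.2% of all genes tested, and 0 called. Xist itself was not analysed here. Rlim is the ubiquitin ligase that promotes Xist transcription by degrading its repressor. It is among the best covered genes, with 1399 CAST and 2430 129 reads, then 509 and 753, in Nons, and 1608 and 2117, then 1646 and 1687, with shSetdb1.4. The CAST share was 36.5% (95% Wilson interval 35.0 to 38.1) and 40.3% (37.7 to 43.1) in Nons, and 43.2% (41.6 to 44.8) and 49.4% (47.7 to 51.1) with shSetdb1.4. The difference was near even between replicates at 0.40 and 0.53, and the fitted value was 0.47 (SE 0.16, adjusted p = 0.118). Chic1, which lies beside Xist, was at 45.1%, 45.7%, 45.7% and 64.0% in the same order, so its fitted 0.46 came from shSetdb1.4 replicate 2.

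Genes known to escape X inactivation are expressed from both X chromosomes in female cells. All 6 that were tested had a higher fitted ratio, beside 82.2% of all genes tested, and 5 were higher in both replicates, beside 59.1%. Their median was 0.42 beside 0.32 for all genes tested. Ddx3x, an RNA helicase, had CAST shares of 43.4% and 47.9% in Nons and 51.5% and 56.5% with shSetdb1.4 (0.51, SE 0.20, adjusted p = 0.203). Kdm5c, a demethylase of histone 3 lysine 4, was at 46.1% and 46.6%, then 50.2% and 55.3% (0.37, adjusted p = 0.213). Kdm6a, a demethylase of histone 3 lysine 27, was at 52.3% and 48.1%, then 49.8% and 56.3%, with opposite signs in the replicates. Eif2s3x, a subunit of the translation initiation factor eIF2, was at 53.7% and 47.7%, then 53.8% and 53.6%, a fitted 0.12 (SE 0.26). The list had 0 genes past the adjusted threshold, 3 of 6 at an unadjusted p under 0.05 (Ddx3x, Kdm5c and Pbdc1) beside 22.7% of all genes tested, and after centring on the library medians it split into 4 higher and 2 lower.

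Nucleotide, lipid and mitochondrial metabolism had the most members at low p. Of 21 tested genes 20 had a higher fitted ratio and 17 were higher in both replicates, with a median of 0.45. Over all genes tested these shares were 82.2% and 59.1%. The unadjusted p was under 0.05 for 12 of the 21, beside 56 of 247 over all genes, and 0 passed the adjusted threshold. After centring, 16 were higher and 5 lower, with a median of 0.13. This list, like the others here, was drawn up with earlier results of these data known and is no independent evidence of a direction. Pdha1, a subunit of pyruvate dehydrogenase, was at 35.7% and 46.2% in Nons and 43.8% and 51.8% with shSetdb1.4 (0.44, adjusted p = 0.203). Its difference was 0.09 without Nons replicate 1 and 0.73 without Nons replicate 2. Alg13, a subunit of a transferase of N-glycan synthesis, was at 36.3% and 39.9%, then 39.0% and 49.1% (0.35). Hprt, the purine salvage enzyme often used as a reference gene, was at 33.9% and 36.1%, then 33.3% and 42.3%, a fitted 0.18 (SE 0.20) with opposite signs in the replicates.

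Chromatin and transcription genes gave 16 higher and 2 lower of 18 tested, with a median of 0.44, 13 higher in both replicates, and 0 called. Over all genes tested 82.2% were higher and 59.1% were higher in both replicates. The unadjusted p was under 0.05 for 5 of the 18, namely Atrx, Phf6, Bcorl1, Ogt and Zfx, beside 22.7% of all genes tested. Atrx, a chromatin remodeller of heterochromatin, was at 48.1%, 48.0%, 48.4% and 62.4%, so its fitted 0.41 came from shSetdb1.4 replicate 2. Hcfc1, a scaffold of transcription regulators, was at 44.8% and 53.8%, then 47.3% and 58.6% (0.24). Its difference was -0.03 without shSetdb1.4 replicate 2 and 0.53 without shSetdb1.4 replicate 1. Hdac6, a tubulin deacetylase, was at 42.7% and 49.3%, then 44.8% and 54.4% (0.22). Nono, a nuclear RNA-binding protein, was lower in both replicates, at -0.42. After centring, 11 of the list were higher and 7 lower.

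RNA processing, export and translation genes gave 12 higher and 2 lower of 14, beside 82.2% higher among all genes tested. Their median was 0.32, close to that of all genes tested. Utp14a, of the complex that processes small subunit ribosomal RNA, had the lowest CAST share of the 14 in every library. It had 78 CAST and 343 129 reads, then 50 and 173, in Nons, and 73 and 233, then 187 and 343, with shSetdb1.4. Its shares of 18.5% and 22.4% against 23.9% and 35.3% did not overlap, and the fitted difference was 0.77 (SE 0.25, adjusted p = 0.118). Dkc1, the pseudouridine synthase, was at 64.1% and 65.0%, then 69.5% and 66.2% (0.23), and Gnl3l, a nucleolar GTPase, at 49.8% and 51.8%, then 51.0% and 58.5% (0.25). With Nkap, Nxt2 and Ftsj1, Utp14a made 4 of 14 genes at an unadjusted p under 0.05, beside 22.7% of all genes tested, and 0 passed the adjusted threshold. Centring left 7 higher and 7 lower.

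Cytoskeleton and membrane traffic genes all had a higher fitted ratio (16 of 16, median 0.38), 14 of them in both replicates, and 0 were called. Among all genes tested 82.2% had a higher fitted ratio and 59.1% were higher in both replicates. Flna, the actin crosslinker filamin A, was among the most deeply covered genes, with 3142 CAST and 2531 129 reads in shSetdb1.4 replicate 2. Its CAST share was 41.8% and 45.6% in Nons and 45.1% and 55.4% with shSetdb1.4 (0.38, SE 0.15, adjusted p = 0.203), so that shSetdb1.4 replicate 1 fell between the Nons libraries. Msn, which links actin to the membrane, was at 39.4% and 46.8%, then 45.9% and 52.1% (0.36), and Maged1 was at 33.0% and 43.7%, then 37.9% and 44.6% (0.21). After centring the list split into 10 higher and 6 lower.

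Ubiquitin and proteasome genes gave 10 higher of 10, beside 82.2% of all genes tested, with a median of 0.26 and 0 called. Centring left 4 higher and 6 lower. Huwe1, a large ubiquitin ligase, was at 40.7% and 48.3%, then 45.1% and 54.1% (0.32, SE 0.17, adjusted p = 0.250). Uba1, the ubiquitin-activating enzyme, was at 47.2% and 49.2%, then 46.0% and 53.8% (0.10). Genes of pluripotency and the exit from it gave 6 higher of 6, beside the same 82.2%, with a median of 0.34 and 0 called. Centring left 3 higher and 3 lower. Dusp9, a phosphatase of the ERK kinases, was at 41.7% and 42.9%, then 45.9% and 51.9% (0.37). Tfe3, a transcription factor that opposes exit from pluripotency, was at 42.3% and 44.9%, then 43.0% and 53.9% (0.30). Klhl13, an adaptor of cullin 3, was rich in CAST reads in every library, at 68.9% and 72.5% in Nons and 68.0% and 78.1% with shSetdb1.4 (0.19).

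Germline and testis genes, a class that Setdb1 is known to silence, were mostly too low to test: 21 of 22 had SNPs and 5 had at least 10 reads in every library. The fitted ratio was higher for 4 and lower for 1, beside 82.2% higher among all genes tested, with a median of 0.02 and 0 called. After centring 2 were higher and 3 lower. Taf7l, a germ cell subunit of the TFIID complex, had 8 CAST and 50 129 reads, then 5 and 18, in Nons, and 31 and 71, then 27 and 55, with shSetdb1.4. The fitted difference was 1.24 (SE 0.54, adjusted p = 0.203). It is named after its values were seen, as the 1 gene of the list at an unadjusted p under 0.05. Usp26, a testis deubiquitinase, was at 34.0% and 8.0%, then 44.3% and 28.6%, with 2 CAST reads in Nons replicate 2. Nxf3, an RNA export factor, was at 41.5% and 27.5%, then 39.2% and 34.0%. Xlr3a, of a family of near-identical copies whose reads cannot be placed with certainty, was at 40.0% and 50.0%, then 39.1% and 50.9%.

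**Figure D4:**
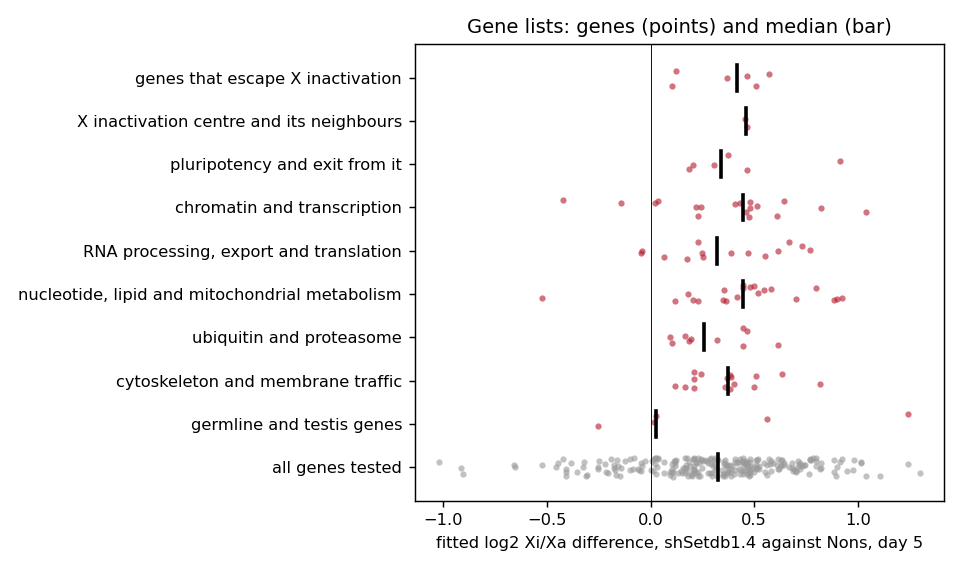
Fitted log2 Xi/Xa difference (shSetdb1.4 against Nons, day 5) of each tested member of the gene lists, 1 point per gene with the median as a bar and all 247 genes in grey. The list medians lie between 0.02 for germline and testis genes and 0.46 for the 2 neighbours of the X inactivation centre, beside 0.32 over all genes.

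Each allele was also fitted alone, scaled on the X-linked totals. The table holds X-linked genes only, so how a change of ratio divides between a gain of CAST and a loss of 129 reads is set by that scaling, and which allele moved cannot be told apart. CAST reads were higher for 185 of 247 genes with a median log2 difference of 0.22, and 129 reads were lower for 152 with a median of -0.09. For 106 genes CAST reads were higher and 129 reads lower, for 79 both were higher, for 46 both were lower, and for 16 CAST reads were lower and 129 reads higher. No gene passed the adjusted threshold for CAST reads (0 of 247, 0%), where 23 genes (9.31%) had an unadjusted p under 0.05, 22 of them higher (8.91%). For 129 reads 0 genes passed and 15 (6.07%) had an unadjusted p under 0.05, 11 of them lower (4.45%). DESeq2 also called 0 for either allele. Scaled to library totals in place of TMM factors, the medians were 0.13 for CAST and -0.17 for 129. Without shSetdb1.4 replicate 2 the medians were 0.07 for CAST and -0.04 for 129, and without shSetdb1.4 replicate 1 they were 0.30 and -0.18.

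The balance between the alleles differed from gene to gene. Pcyt1b had a CAST difference of 0.17 and a 129 difference of -0.74, and Ikbkg 0.28 and -0.72. Acot9 had 0.98 and 0.09, and Flna 0.53 and 0.16. Prps1 had 0.39 and -0.29, and Rlim 0.31 and -0.15. None of these single values passed the adjusted threshold.

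**Figure D5:**
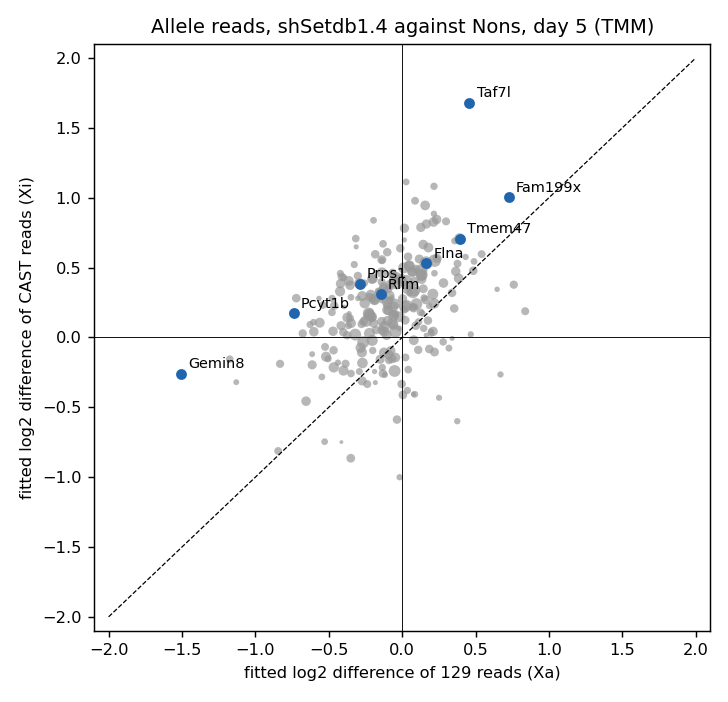
Fitted log2 difference (shSetdb1.4 against Nons, day 5) of 129 reads (horizontal, Xa) and CAST reads (vertical, Xi) for the 247 tested genes, with points above the dashed diagonal where the Xi/Xa ratio is higher. The cloud lies mostly above the diagonal and spreads to both sides of the vertical axis, with 106 genes in the upper left corner and 79 in the upper right.

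Total reads per gene, both alleles together, were scaled on the totals of these same genes, which holds the middle of their differences near 0, so only single genes relative to the others can be read. The median log2 difference was 0.03, with 141 genes higher and 106 lower, and with library totals it was -0.06, with 100 higher and 147 lower. No gene passed (0 of 247, 0%), the smallest adjusted p was 0.936, and 9 genes (3.64%) had an unadjusted p under 0.05. DESeq2 also called 0. Tmem47, Fam199x, Gemin8 and Gpc4 were among the genes with the 5 smallest p. Tmem47, a junctional membrane protein, had 88.5 and 89.5 reads per 10000 allele reads in Nons and 124 and 119 with shSetdb1.4, a log2 difference of 0.53 (SE 0.18, adjusted p = 0.936). Gemin8, of the SMN complex that assembles spliceosomal particles, had 6.89 and 5.16 against 3.63 and 2.36 (-0.94, SE 0.34, adjusted p = 0.936), on 17 to 60 reads a library. Fam199x was at 16.3 and 11.2 against 18.8 and 29.3. Dusp9, listed as a marker of pluripotent cells, was at 57.3 and 53.1 in Nons and 45.7 and 36.4 with shSetdb1.4, and Gpc3, listed for primitive endoderm, at 32.5 and 45.8 against 36.5 and 25.7. The part of these markers in the ratio was not tested.

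At day 3 of the same differentiation the hairpins did not differ in the median SNP ratio, which was 0 in all 4 libraries of Nons and shSetdb1.4. Between genes at day 3, the ratio with shSetdb1.4 was higher for 111 and lower for 135 in replicate 1, and higher for 133 and lower for 114 in replicate 2. The change of the hairpin effect from day 3 to day 5 was tested as an interaction in the same fit. It had a median of 0.34, with 182 genes higher and 65 lower, and 0 genes passed the adjusted threshold (0%), the smallest adjusted p being 0.120. Without shSetdb1.4 replicate 2 of day 5 the median was 0.16, with 164 higher and 83 lower, and without replicate 1 it was 0.58, with 196 and 51. At an unadjusted p under 0.05 there were 23 genes (9.31%), 21 of them higher (8.5%), and DESeq2 called 0. The median SNP difference between days was 0.20 and 0.44, with an exact permutation p of 0.5, again the smallest that 2 pairs allow. As the day 3 medians were 0, these are the day 5 differences again and add nothing on the change between days.

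Against the second hairpin, shSetdb1.6, the median ratio at day 5 differed by -0.18 in replicate 1 and 0.16 in replicate 2, a mean of -0.01 ± 0.24 (SD, n = 2; exact permutation p = 1). The shSetdb1.6 medians were -0.09 and 0.03, between those of the shSetdb1.4 libraries. Between the hairpins 122 genes were higher and 125 lower with shSetdb1.4, with a median of -0.01. One gene passed (1 of 247, 0.405%), Tceal9, and 13 (5.26%) had an unadjusted p under 0.05. Tceal9, of a family of related transcription elongation factor-like genes, was at 33.8% and 49.7% with shSetdb1.4, 20.9% and 33.0% with shSetdb1.6, and 44.2% and 45.1% with Nons. The log2 difference between hairpins was 0.98 (SE 0.18, adjusted p = 9.22e-06), and against Nons it was -0.20 (SE 0.18, adjusted p = 0.487). The call was lost without the replicate block (adjusted p = 0.104), without shSetdb1.4 replicate 2 (0.0849) and without shSetdb1.6 replicate 1 (0.582). Related copies of this family also make the placement of its reads uncertain.

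The fitted difference varied along the chromosome. In bins of 10 Mb of mm10 the median fitted difference was positive in each bin but the one from 60 to 70 Mb, which held 5 genes and had a median of -0.08. From 40 to 50 Mb, a bin of 10 genes that includes Utp14a and Bcorl1, all 10 were higher, with a median of 0.64. Of these, 6 had an unadjusted p under 0.05. Over all genes tested 82.2% were higher and 22.7% were at that p. The bin is named after its values were seen, out of 17 bins, and was not tested against the others. In the best filled bin, from 70 to 80 Mb, 30 of 39 genes were higher with a median of 0.24. Most bins hold under 20 genes, so their order carries little weight.

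Genes were split into 4 groups by their CAST share in undifferentiated cells at day 0. The median fitted differences were 0.39, 0.30, 0.36 and 0.29, from the lowest day 0 share to the highest. The number of genes with a higher ratio was 52, 50, 51 and 50 in groups of 61 or 62 genes. In replicate 1 the median log2 ratios of the groups were -0.87, -0.49, -0.28 and -0.18 in Nons and -0.63, -0.36, -0.23 and -0.06 in shSetdb1.4. In replicate 2 they were -0.49, -0.25, -0.21 and 0.03 in Nons and -0.19, 0.12, 0.28 and 0.35 in shSetdb1.4. Each group's median was higher with shSetdb1.4 in both replicates, but the size by group was not the same in both: the gap between hairpins was smallest in the third group in replicate 1 and largest there in replicate 2. The groups were not tested against each other. The order of the groups was the same in all 4 libraries.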

How the data were processed

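RNA was measured by single-end RNA-seq (100 bp reads). Per the study's methods, the authors aligned reads to mm10 with Subread and took allele counts with samtools pileup at SNPs of the Mouse Genomes Project, and the submitters' processing notes name CASAVA 1.8.2. The deposited table holds raw counts of reference (129) and alternate (CAST) reads at 2239 X-linked SNPs, not normalized, and 4 columns of per-sample counts in it were not used. A read over several SNPs is counted at each. SNPs in exons of 1 gene (2173, GENCODE annotation of mm10) were summed by gene, and 31 SNPs in several genes and 35 outside exons were left out. Of the 2173, 1260 lay in UTRs.

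Groups and pairing came from the labels, and the study compares hairpins within replicate experiments. Replicate differences of shSetdb1.4 and Nons at day 5 correlated at 0.163 over gene ratios and 0.657 over gene totals. Over all 21 pairs of conditions the mean was 0.051 for ratios (-0.139 to 0.266) and 0.210 for totals (-0.056 to 0.657). Ratios were tested with edgeR 4.0.16 (R 4.3.3) quasi-likelihood fits over 14 libraries (28 allele columns), with a term per library, an allele effect per condition and a replicate block. Totals and single alleles used TMM factors from totals and the same block. P-values were adjusted by Benjamini-Hochberg over 247 genes, at a threshold of 0.05. Medians of log2((CAST + 1)/(129 + 1)) used SNPs with at least 10 reads and exact permutation tests. DESeq2 1.42.0, other filters, scalings and left-out libraries were alternatives. The fits were tested on simulated data. Total depth was 32972 to 101511 reads a library.

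Members and gene lists were chosen with earlier results of these data known. Named genes were any called genes (none for Nons), the 5 greatest differences each way with at least 30 reads in each library and a shared sign, the 5 smallest p for totals, the 3 best covered genes of each list, Hprt and 4 escape genes, and genes called against shSetdb1.6. Genes named only to spell out a short count, and Mtmr1 and Taf7l, were chosen after their values were seen. Some genes that these rules name are not reported here.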

Additional observations from a re-analysis of the deposited data

Results flagged for a closer look

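For 7 of 42 named genes (16.7%) the hairpin difference had opposite signs at day 5 and day 3 in every replicate, with the ratio higher with shSetdb1.4 at day 5 and lower at day 3. The same held for 38 of the 247 genes tested (15.4%), so the named genes did so at a share near that of all genes. The difference between days was tested as an interaction in edgeR's quasi-likelihood fit, and 0 of the 7 passed the adjusted threshold. Bcorl1 had log2 differences of 0.68 and 1.78 at day 5 against -1.02 and -0.80 at day 3, an interaction of 1.95 (SE 0.69, adjusted p = 0.305). Utp14a had 0.46 and 0.90 against -0.26 and -0.12, an interaction of 0.95 (adjusted p = 0.324). Rlim had 0.40 and 0.53 against -0.10 and -0.06, an interaction of 0.55 (adjusted p = 0.464). Tmem47 had an interaction of 0.78 and Alg13 of 0.49 (adjusted p = 0.464 for each). Hcfc1 and Huwe1 each had an interaction of 0.36 (adjusted p = 0.464 and 0.470).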

How the results depend on the processing

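The median Xi/Xa difference kept its sign and lay within 1 SD of its value under each alternative run. It was 0.44 without replicate 1 and 0.20 without replicate 2. With 2 replicates, leaving 1 out always stays within 1 SD, so those runs do not show stability. Over counts and medians, 75 alternative values stayed close and 17 moved. For the ratio against Nons, 1 gene was called by DESeq2, 2 with at least 30 reads and 0 without the replicate block (43 at an unadjusted p under 0.05), and leaving out 1 library gave 0 to 39, the 39 without shSetdb1.4 replicate 1. Against shSetdb1.6, 0 were called without the replicate block and 0 to 2 with a library left out. For the interaction, 1 was called with no filter on low counts (5530601H04Rik, lower) and 0 to 10 with a library left out, the 10 without shSetdb1.4 replicate 1. CAST reads gave 0 to 3 with a library left out, 3 without shSetdb1.4 replicate 1 and 1 without Nons replicate 1. For 129 reads, 1 was called with day 5 libraries only (Gemin8, lower). Centring on library medians gave 69 genes higher and 69 lower in both replicates, and 49.3% and 51.0% of SNPs higher in replicates 1 and 2. With at least 20 reads, 77.0% of SNPs were higher in replicate 2. The cause was not tested. For single genes, 944 values stayed on their side of the threshold, 21 passed it newly and 3 lost it, all 3 of Tceal9 between hairpins. The sign against Nons turned for several named genes. It did so in 6 of 13 alternatives for Nxf3, 4 for Xlr3a and 3 for Kdm6a. For Hcfc1, Gnl3l, Klhl13, Uba1 and Hprt it turned in 2 each, and for Prps1, Pcyt1b and Rlim in 0. The fit of day 5 libraries only for the contrast of hairpins was added after seeing the data and called 1 gene, Tceal9. Nons replicate 2 limits depth.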
